A study of Mus musculus with 20 samples.

Results

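Expression of 8 genes around PPAR-alpha and the burning of fatty acids was followed in mouse liver on alcohol or control diet: Cyp4a10, Cyp4a14, Acot1, Acot2, Pdk4, Cpt1a, Acaa2 and Ppara. They were taken by symbol from a liver table of 24972 gene symbols, and all 8 symbols were found. RNA sequencing covered total liver from mice labelled male and kept on their diet for 6 weeks. There were 4 libraries from WT mice for each diet and 3 libraries for each diet from mice labelled RageΔMye. A second table held the mouse macrophage line RAW264.7, exposed for 6 hours to BSA (n = 3) or to [O] HMGB1 complexed with IL1β (n = 3). The genotype name is read here as a myeloid deletion of Ager, which encodes RAGE. The sources used here do not state what drives the deletion, the strain or the age of the mice. No label says that libraries of a group came from separate animals or cultures, so the p-values measure the spread between these libraries.

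PPAR-alpha is a nuclear receptor of hepatocytes that binds fatty acids, pairs with an RXR partner and switches on genes of fatty acid use, above all in fasting. Its classical targets in rodent liver include the microsomal Cyp4a enzymes, which add a hydroxyl group to the far end of fatty acids, and the acyl-CoA thioesterases, which release free fatty acid from its CoA ester. Others are Pdk4, a kinase that shuts off pyruvate dehydrogenase and so spares glucose, and Cpt1a, which passes long-chain fatty acids into the mitochondrion. Acaa2 carries out the last, thiolytic step of mitochondrial beta-oxidation, and Ppara encodes the receptor itself.

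Libraries of the 2 genotypes differed in how many genes they listed and in their spread, and this bears on every value below. WT libraries listed 15113 to 15599 genes above 0, and libraries labelled RageΔMye listed 7596 to 8502. The median SD of a gene between replicates, on the log2 scale, was 0.218 and 0.161 in the WT groups against 0.919 and 0.889 in the groups labelled RageΔMye. Ager went against the genotype label: it stood at 0.0194 to 0.478 TPM in the 8 WT libraries and at 93.1 to 166 TPM in the 6 libraries labelled RageΔMye. The share of TPM in genes whose exons overlap those of an opposite-strand gene was 15.4% to 18.3% in WT libraries and 55.8% to 61.7% in libraries labelled RageΔMye. None of the 8 genes has such an overlap in GENCODE vM21. A zero in the libraries labelled RageΔMye is therefore given as listed at 0, not as absence, and the genotypes are named as labelled.

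The sex-linked transcripts of WT liver also went against the labels. Xist, the transcript of the inactive X chromosome, ranged from 0.00165 to 0.135 TPM in control libraries and from 17.8 to 27.3 TPM in alcohol libraries. The summed level of 4 Y-linked genes was 11.3 to 16.6 TPM on control diet and 0 to 0.0161 TPM on alcohol diet, and all 8 libraries are labelled male. Diet and sex therefore cannot be told apart in any WT comparison below. In libraries labelled RageΔMye the Y-linked sum was 3.16 to 4.50 TPM on control diet and 0.276 to 1.74 TPM on alcohol diet, with Xist at 0 to 3.10 and 0.322 to 0.990 TPM. The Y-linked sums did not overlap between diets there and Xist did, so diet and sex cannot be cleanly told apart in those libraries.

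The first comparison asked how the alcohol diet moved the 8 genes in WT liver. Acot2, Pdk4, Cyp4a14 and Cyp4a10 were higher on alcohol, whereas Acot1, Cpt1a, Acaa2 and Ppara did not pass the test. With a control mean of 0.847 TPM, Acot2 entered the test only through its alcohol group. The count of 4 of 8 stood beside 31.2% of the 9747 genes tested, and 4 higher beside 13.3% of genes called higher (limma on log2(TPM + 1), Benjamini-Hochberg adjusted p under 0.05). The median change of the 8 genes was 0.52 on the log2 scale and that of all genes tested was -0.05. Acot2 and Pdk4 had no control library that reached an alcohol library, 2 of 8 beside 30.8% of genes whose libraries did not overlap in either direction. The call on Acot2 and Pdk4 held under all 15 alternatives run, and those on Cyp4a14 and Cyp4a10 were lost under 6 and 10 of them.

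**Figure D1:**
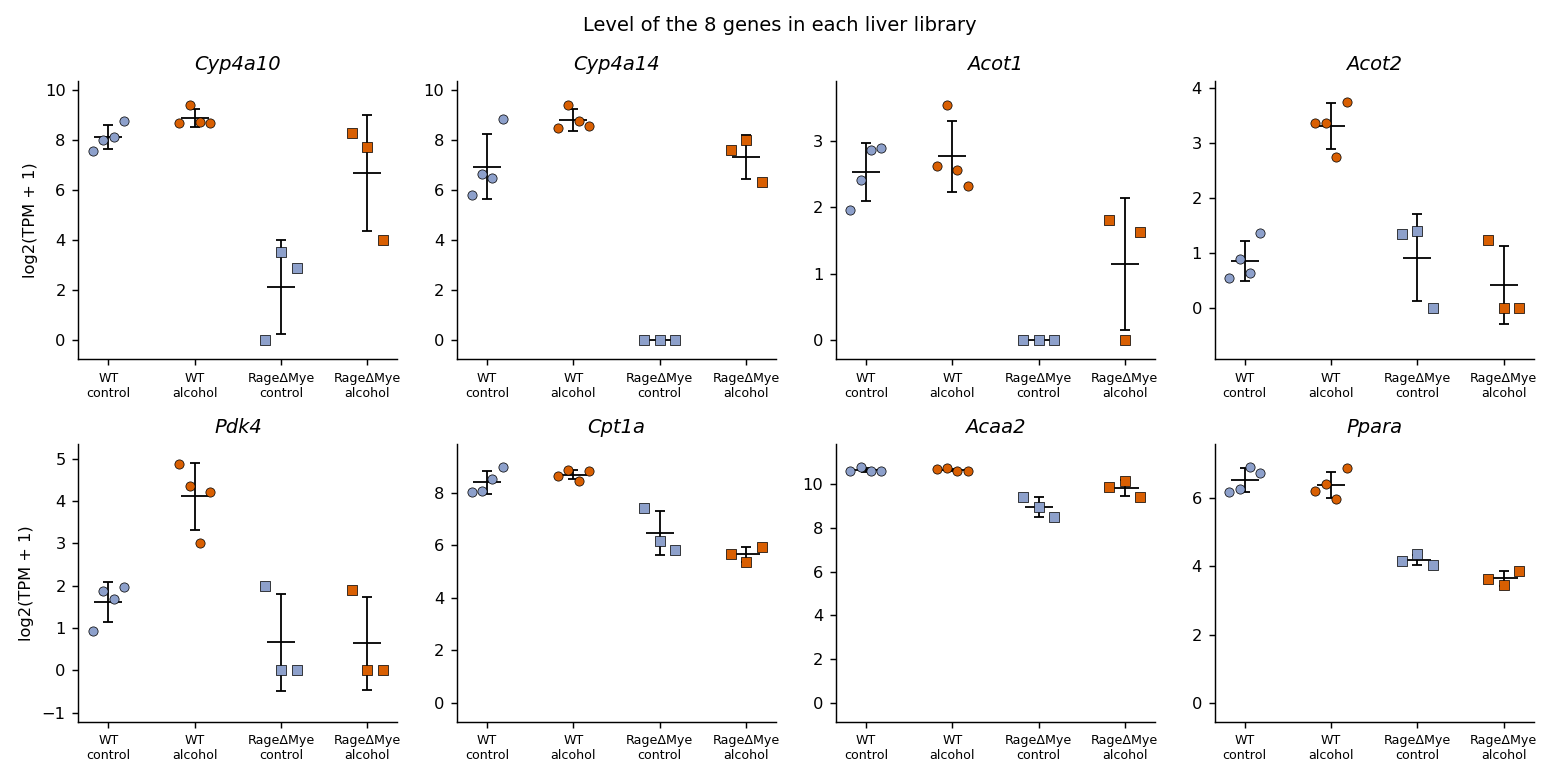
Level of each of the 8 genes in the 14 liver libraries on a log2(TPM + 1) axis, 1 panel a gene. Points are libraries (circles WT, squares labelled RageΔMye, blue control diet, orange alcohol diet), the horizontal stroke is the group mean of the log2 values and the bar their SD (n = 4 or 3). Acot2 and Pdk4 separate completely by diet in WT, with Acot2 at 0.455 to 1.56 TPM on control diet and 5.70 to 12.5 TPM on alcohol, while Cyp4a14 in WT has 1 control library, at 457 TPM, among the alcohol libraries.

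Cyp4a14 and Cyp4a10, both omega-hydroxylases, lie close together on mm10 chromosome 4. Cyp4a14 spans chr4:115486200-115496142 on the minus strand and Cyp4a10 spans chr4:115518264-115533649 on the plus strand. WT control libraries 1 to 4 held Cyp4a14 at 55.4, 101, 89.0 and 457 TPM. WT alcohol libraries 1 to 4 held it at 356, 691, 439 and 377 TPM. Alcohol library 2 thus stood well above the other alcohol libraries. Control library 4 lay inside the alcohol range while the other 3 controls lay far below it. The mean went from 175 ± 188 TPM (SD, n = 4) to 466 ± 154 TPM (SD, n = 4), a log2 fold change of 1.86 (SE 0.528, 95% interval 0.69 to 3.03, limma adjusted p = 0.0233). The exact two-sided permutation test gave p = 0.114, where the smallest p that 4 against 4 can give is 0.0286. Leaving out control library 4 raised the change to 2.49 (limma adjusted p = 0.000115), whereas the call was lost without control library 1, 2 or 3 (adjusted p = 0.06, 0.0535 and 0.0655) or alcohol library 2 (adjusted p = 0.0583).

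Cyp4a10 moved less than its neighbour. On control diet its levels were 190, 256, 283 and 436 TPM in libraries 1 to 4, and on alcohol diet 407, 688, 426 and 417 TPM. Control library 4 again reached the alcohol range, and alcohol library 2 stood above the other 3. The mean was 291 ± 104 TPM on control diet and 484 ± 136 TPM on alcohol diet (SD, n = 4 each), a log2 fold change of 0.76 (SE 0.248, 95% interval 0.21 to 1.31, limma adjusted p = 0.0397). By the exact permutation test p was 0.114. This call was lost in 7 of the 8 fits that left out 1 library, with adjusted p from 0.056 to 0.102, and was kept only without control library 4 (0.98, limma adjusted p = 0.00562). Of its transcript's runs of 50 bases 29.8% occur in another gene, 24.5% in Cyp4a32 and 15% in Cyp4a31, so reads of these genes can be exchanged in counting. Summed with Cyp4a31 and Cyp4a32, the level was 252 to 510 TPM on control diet and 435 to 721 TPM on alcohol diet, ranges that overlapped too.

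Within a library, Cyp4a14 stood at 0.291, 0.394, 0.314 and 1.05 times the TPM of Cyp4a10 on control diet and at 0.876, 1.01, 1.03 and 0.904 times on alcohol diet. TPM is scaled for transcript length, so levels of different genes can be set side by side. In 3 of 4 control libraries Cyp4a14 was well below Cyp4a10, and in the fourth control library and all 4 alcohol libraries the pair stood near parity. Control library 4 was the highest of the 4 control libraries for 6 of the 8 genes, Cyp4a10, Cyp4a14, Acot1, Acot2, Pdk4 and Cpt1a, and for 31.0% of all genes tested. That count was looked up after the values were seen.

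**Figure D2:**
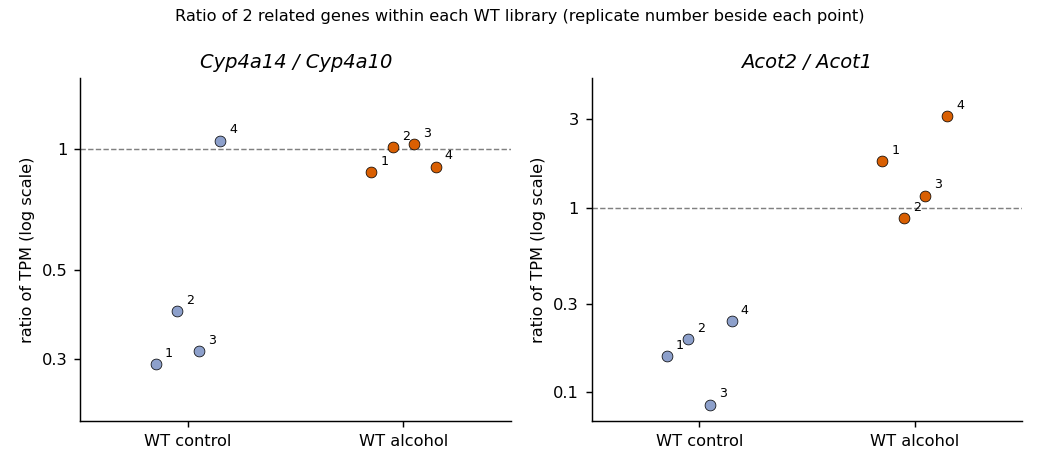
Ratio of TPM of Cyp4a14 to Cyp4a10 (left) and of Acot2 to Acot1 (right) in each of the 8 WT libraries, on log axes, with the library's number beside its point and a dashed line at equal TPM. The Cyp4a ratio is 0.291 to 0.394 in 3 control libraries and 0.876 to 1.05 in the others, and the Acot ratio is 0.0857 to 0.243 on control diet and 0.873 to 3.12 on alcohol diet.

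Other enzymes of the omega-hydroxylation list moved the opposite way. Of 12 listed genes tested 2 were higher, both described above, and 6 were lower, with a median change of -0.46 beside -0.05 for all genes. Cyp4a12a fell from between 211 and 361 TPM on control diet to a mean of 0.0533 ± 0.0513 TPM and Cyp4a12b from 75.3 ± 7.29 to 0.0133 ± 0.0267 TPM (log2 fold changes -7.95 and -6.23, limma adjusted p = 5.07e-10 and 2.54e-10). Both are known male-biased liver genes and are also on the male-biased list, of which all 16 tested genes were lower. Cyp4a32 fell from 52.9 ± 8.83 to 24.7 ± 6.73 TPM (-1.09, limma adjusted p = 0.00231), although it shares sequence with Cyp4a10, and Cyp4f14, which acts on leukotrienes and vitamins, fell from 138 ± 22.1 to 88.3 ± 5.32 TPM (-0.63, limma adjusted p = 0.00479). Cyp4a31, named after its values were seen, at 8.54 ± 2.66 and 10.3 ± 1.39 TPM, did not pass (0.29, limma adjusted p = 0.314).

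Acot2 and Acot1 are neighbours on the plus strand of mm10 chromosome 12, Acot2 at chr12:83987861-83993873 and Acot1 at chr12:84009490-84018371. Acot2 encodes the mitochondrial and Acot1 the cytosolic long-chain acyl-CoA thioesterase. Their promoter windows, from 250 bases before to 50 bases from the annotated start, are shown with that of Pdk4 because Acot2 and Pdk4 rose together while Acot1 did not pass, and with that of Cpt1a because it alone of the matched windows holds the hexamer AGGTCA, the core letters of PPAR-alpha response elements. The capital base in lower-case sequence marks the annotated start, and the run of capitals in Cpt1a marks that hexamer, read on the opposite strand. The sequences are those of RefSeq on GRCm38.p6, written 5′ to 3′ on the gene's strand, for chr12:83987611-83987910 (Acot2, plus strand), chr12:84009252-84009551 (Acot1, plus), chr6:5496229-5496528 (Pdk4, minus) and chr19:3323051-3323350 (Cpt1a, plus).
Acot2: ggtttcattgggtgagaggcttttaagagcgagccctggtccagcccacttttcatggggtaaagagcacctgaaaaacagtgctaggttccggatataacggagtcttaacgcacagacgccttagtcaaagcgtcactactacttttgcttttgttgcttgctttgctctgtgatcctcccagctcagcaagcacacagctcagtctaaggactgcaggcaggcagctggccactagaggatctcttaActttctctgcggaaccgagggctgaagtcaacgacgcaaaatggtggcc
Acot1: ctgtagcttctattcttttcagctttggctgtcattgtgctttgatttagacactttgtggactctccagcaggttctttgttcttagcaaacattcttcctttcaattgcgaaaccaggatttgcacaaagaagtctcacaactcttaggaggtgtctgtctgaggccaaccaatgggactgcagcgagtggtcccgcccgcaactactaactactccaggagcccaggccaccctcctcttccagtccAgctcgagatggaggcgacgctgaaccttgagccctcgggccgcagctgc
Pdk4: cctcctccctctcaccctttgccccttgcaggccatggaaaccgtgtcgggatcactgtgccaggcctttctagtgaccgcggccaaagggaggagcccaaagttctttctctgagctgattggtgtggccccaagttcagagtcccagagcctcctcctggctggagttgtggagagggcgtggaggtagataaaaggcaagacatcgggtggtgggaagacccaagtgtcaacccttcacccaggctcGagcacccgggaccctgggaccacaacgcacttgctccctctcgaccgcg
Cpt1a: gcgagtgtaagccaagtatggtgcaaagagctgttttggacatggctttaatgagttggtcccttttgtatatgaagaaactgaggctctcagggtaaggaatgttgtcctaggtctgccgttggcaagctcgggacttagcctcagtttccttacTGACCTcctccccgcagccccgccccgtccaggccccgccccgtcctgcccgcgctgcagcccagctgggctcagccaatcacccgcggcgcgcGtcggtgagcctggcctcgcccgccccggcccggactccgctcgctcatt

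Of the 8 genes, Acot1, Acot2, Pdk4, Cpt1a and Ppara had a promoter window in the RefSeq table that was searched. Neither the direct repeat of AGGTCA with a spacer of 1 base, known as DR1, nor a looser form built from AGGNCA was found on either strand of these 5 windows. The strict form occurs in 0.0396% and the loose form, which includes the strict one, in 0.381% of 32851 promoter windows of the same length. The single hexamer AGGTCA occurs in 16.3% of them and once among the 5 windows, in Cpt1a at position -94 counted from the start. That hexamer search was added after the first result was seen, and a match or its lack describes only these letters in these windows.

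Acot2 showed the clearest change of the 8 genes. WT control libraries 1 to 4 gave 0.455, 0.838, 0.540 and 1.56 TPM, and WT alcohol libraries 1 to 4 gave 9.24, 9.33, 5.70 and 12.5 TPM. Every alcohol library lay above every control library. The mean rose from 0.847 ± 0.500 to 9.20 ± 2.78 TPM (SD, n = 4 each), with a log2 fold change on the log2(TPM + 1) scale of 2.46 (SE 0.231, 95% interval 1.95 to 2.97, limma adjusted p = 5.12e-05). The exact permutation test gave its smallest possible p of 0.0286. Because the pseudocount of 1 TPM exceeds the control mean, this scale understates the change, and a pseudocount of 0.01 gave 3.54. Acot2 entered the test only through its alcohol group, since its control mean was under the 1 TPM minimum.

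Acot1 gave a different picture. Its control libraries stood at 2.90, 4.31, 6.30 and 6.40 TPM and its alcohol libraries at 5.19, 10.7, 4.92 and 4.01 TPM. Apart from alcohol library 2 the diets covered the same range. The means were 4.98 ± 1.69 and 6.20 ± 3.03 TPM, and the log2 difference was 0.23 (95% interval -0.38 to 0.85, limma adjusted p = 0.555). Acot2 stood at 0.157, 0.194, 0.0857 and 0.243 times the TPM of Acot1 on control diet and at 1.78, 0.873, 1.16 and 3.12 times on alcohol diet, so the order of the pair turned over in 3 of 4 alcohol libraries. Of the runs of 50 bases in Acot2 transcripts 24.5% also occur in Acot1, and of those in Acot1 13.6% occur in Acot2. The sum of both genes was 3.36 to 7.95 TPM on control diet and 10.6 to 20.0 TPM on alcohol diet, without overlap. Exchanged reads can still alter this sum, because exon length is 3919 bp for Acot1 and 2196 bp for Acot2. Some shared runs also lie in Acot3, Acot4 or Acot5, outside the sum.

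Among the thioesterase list 11 genes were tested, 3 were higher and 2 lower, with a median change of 0.23. Acot3, a peroxisomal member of the same chromosome 12 cluster, rose from 2.08 ± 1.03 to 10.5 ± 5.79 TPM (1.79, limma adjusted p = 0.00562), and it is also on the female-biased list, of which all 18 genes were higher. Acot9, a mitochondrial thioesterase, rose from 2.57 ± 0.510 to 4.37 ± 0.985 TPM (0.58, limma adjusted p = 0.0237). Them4 fell from 17.7 ± 2.70 to 12.6 ± 1.48 TPM (-0.45, limma adjusted p = 0.031), as did Acot11, named after its values were seen, from 2.76 ± 0.840 to 1.53 ± 0.322 TPM (-0.55, limma adjusted p = 0.0374). The call on Acot3 held with each library left out in turn, and those on Acot9 and Them4 were lost in 5 and 4 of the 8 such fits.

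Pdk4, on mm10 chromosome 6 (chr6:5483351-5496309, minus strand), rose on alcohol diet in WT liver. Control libraries 1 to 4 stood at 0.897, 2.65, 2.23 and 2.89 TPM and alcohol libraries at 28.3, 19.6, 7.0 and 17.7 TPM. No control library reached the lowest alcohol library, number 3, which itself lay well under the other 3. The mean went from 2.17 ± 0.889 to 18.2 ± 8.76 TPM (SD, n = 4 each), a log2 fold change of 2.51 (SE 0.363, 95% interval 1.70 to 3.31, limma adjusted p = 0.000885; exact permutation p = 0.0286). Over the alternatives the change was 2.25 to 3.03, with adjusted p no higher than 0.0401.

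Of 11 tested genes that set pyruvate entry, Pdk4 included, 2 were higher and 1 lower, and the median change was 0.02. Mpc1, a subunit of the mitochondrial pyruvate carrier, rose from 82.2 ± 7.20 to 151 ± 8.74 TPM (0.87, limma adjusted p = 0.000323). Pdk2, another kinase of pyruvate dehydrogenase, fell from 72.0 ± 13.7 to 29.3 ± 4.70 TPM (-1.26, limma adjusted p = 0.000472). Pdk1, a kinase of the same family named after its values were seen, stood at 28.4 ± 6.45 and 32.9 ± 6.38 TPM and did not pass (0.22, limma adjusted p = 0.418). By their means both Pdk2 and Pdk1 were more abundant than Pdk4 on either diet.

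Cpt1a, on mm10 chromosome 19 (chr19:3322334-3385733, plus strand), did not pass. Its control libraries held 261, 272, 371 and 503 TPM and its alcohol libraries 395, 465, 354 and 455 TPM. Control library 4 was the highest of all 8, and the ranges overlapped. Means were 352 ± 112 and 417 ± 52.2 TPM, with a log2 difference of 0.29 (95% interval -0.16 to 0.73, limma adjusted p = 0.299). Without control library 4 the difference was 0.48 and passed (limma adjusted p = 0.0364). In the carnitine shuttle list 2 of 7 tested genes were higher and none lower. Slc22a5, the carnitine importer of the plasma membrane, rose from 23.5 ± 7.15 to 59.4 ± 10.4 TPM (1.33, limma adjusted p = 0.000965), and Cpt1b, the muscle form of the enzyme, from 1.80 ± 0.263 to 2.99 ± 0.181 TPM (0.52, limma adjusted p = 0.00645), while the muscle markers summed to 0 to 1.18 TPM at most.

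Acaa2, on mm10 chromosome 18 (74779197 to 74806208, plus strand), was the most abundant of the 8 genes and the steadiest. Control libraries 1 to 4 read 1541, 1753, 1561 and 1570 TPM, and alcohol libraries 1 to 4 read 1636, 1696, 1567 and 1538 TPM. The groups covered the same range, with means of 1606 ± 98.5 and 1609 ± 71.2 TPM and a log2 difference of 0.00 (95% interval -0.21 to 0.22, limma adjusted p = 0.981). In the list of mitochondrial beta-oxidation, to which it belongs, 1 of 20 genes was higher, none was lower and the median change was 0.09. That gene was Acadl, the long-chain acyl-CoA dehydrogenase, which rose from 111 ± 11.7 to 159 ± 13.5 TPM (0.51, limma adjusted p = 0.00799).

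Ppara, on mm10 chromosome 15 (chr15:85734983-85802819, plus strand), held 70.5, 76.0, 118 and 106 TPM on control diet and 73.3, 84.0, 61.6 and 116 TPM on alcohol diet. The libraries of the diets were interleaved. The means were 92.8 ± 23.2 and 83.8 ± 23.6 TPM, with a log2 difference of -0.15 (95% interval -0.63 to 0.33, limma adjusted p = 0.63). Of its 12 tested partners and cofactors, itself included, 2 were higher and 1 lower, with a median change of 0.00. Hnf4a, a hepatocyte master regulator, rose from 292 ± 59.7 to 427 ± 59.9 TPM (0.56, limma adjusted p = 0.0282), Pparg rose from 13.4 ± 3.68 to 23.4 ± 5.92 TPM (0.76, limma adjusted p = 0.0313) and Rxrg fell from 4.29 ± 1.08 to 2.46 ± 0.560 TPM (-0.61, limma adjusted p = 0.0228). All 3 of these calls were lost in at least 2 of the 8 fits without 1 library.

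**Figure D3:**
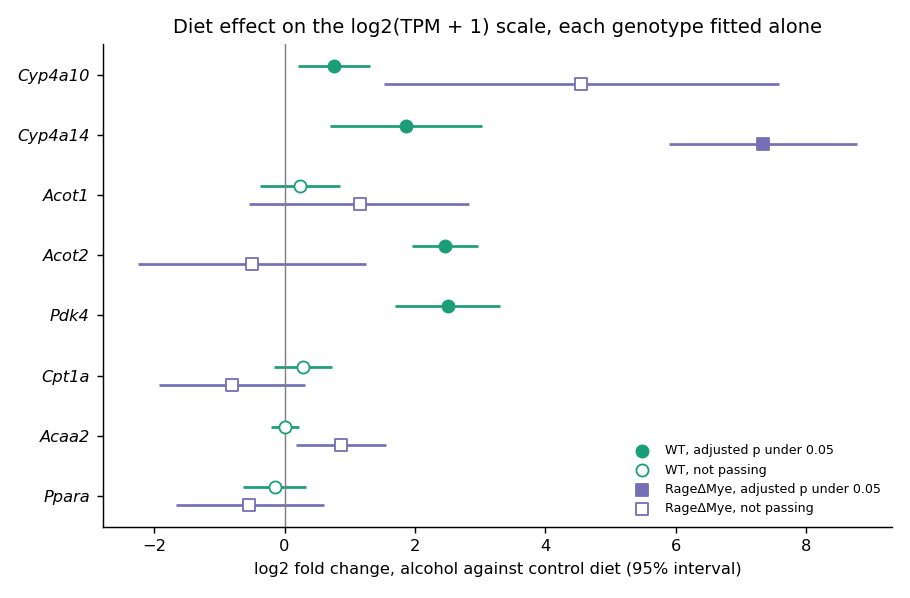
Diet effect on each of the 8 genes as a log2 fold change on the log2(TPM + 1) scale, alcohol against control, with its 95% interval, from limma fits to WT libraries (green circles) and libraries labelled RageΔMye (purple squares) alone. Filled symbols have an adjusted p under 0.05. Intervals are wider in the latter for every gene tested in both genotypes. Cyp4a14 alone is filled there and rests on control libraries listed at 0, and Pdk4 is missing there because both group means lay below 1 TPM.

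Across all 10 lists of fatty acid metabolism, 138 of 155 genes were tested in WT liver. Of these 25 were higher and 22 lower, beside 13.3% and 17.9% of all genes tested, with a median change of 0.00. Each WT list count given here stands beside those shares, and a count near them is no result about its list. Peroxisomal beta-oxidation had 2 higher and 4 lower genes of 20. Phyh, which starts the breakdown of phytanic acid, fell from 1931 ± 114 to 1093 ± 63.6 TPM (-0.82, limma adjusted p = 0.000333), Scp2, the thiolase and sterol carrier, from 694 ± 98.9 to 347 ± 43.9 TPM (-0.99, limma adjusted p = 0.0006) and Acox2, a bile acid side-chain oxidase, from 202 ± 15.9 to 141 ± 2.41 TPM (-0.51, limma adjusted p = 0.00379). Abcd2, a peroxisomal transporter that is also on the female-biased list, rose from 1.64 ± 0.517 to 6.56 ± 2.50 TPM (1.48, limma adjusted p = 0.0015). Ehhadh, the peroxisomal bifunctional enzyme and a classical PPAR-alpha target named here after its values were seen, rose from 83.5 ± 19.3 to 151 ± 28.3 TPM (0.86, limma adjusted p = 0.00776).

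Ketone body genes moved in both directions, 3 higher and 2 lower of 8. The carriers Slc16a6 and Slc16a1 rose from 5.0 ± 2.51 to 16.8 ± 5.93 TPM (1.61, limma adjusted p = 0.00398) and from 6.06 ± 2.23 to 14.1 ± 3.84 TPM (1.11, limma adjusted p = 0.00653). Bdh1, which makes 3-hydroxybutyrate, rose from 132 ± 8.50 to 189 ± 31.5 TPM (0.51, limma adjusted p = 0.0167). Of 17 uptake and activation genes 2 were higher and 2 lower. Cd36, a fatty acid receptor at the cell surface, rose from 7.19 ± 4.28 to 28.1 ± 6.26 TPM (1.93, limma adjusted p = 0.00105) and Fabp4, a fatty acid binding protein of fat cells and macrophages, from 10.4 ± 4.93 to 26.9 ± 3.36 TPM (1.37, limma adjusted p = 0.00329). Acsl1, the main acyl-CoA synthetase of liver and itself a PPAR-alpha target, fell from 510 ± 125 to 202 ± 32.0 TPM (-1.31, limma adjusted p = 0.000718), and Slc27a4 fell from 4.86 ± 0.888 to 3.18 ± 0.602 TPM (-0.49, limma adjusted p = 0.03).

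The list of other PPAR-alpha targets had 6 higher and 4 lower genes of 22. Cyp8b1, the sterol 12-alpha-hydroxylase, fell from 541 ± 144 to 79.9 ± 19.0 TPM (-2.74, limma adjusted p = 1.3e-05), Gpd1, the cytosolic glycerol-phosphate dehydrogenase, from 264 ± 32.6 to 81.8 ± 17.2 TPM (-1.70, limma adjusted p = 6.5e-05) and the sulfotransferase Sult2a8 from 138 ± 26.5 to 52.6 ± 7.77 TPM (-1.37, limma adjusted p = 0.000214). Ucp2, an uncoupling protein, rose from 34.4 ± 7.20 to 61.5 ± 8.54 TPM (0.83, limma adjusted p = 0.00445). Plin2, the lipid droplet coat named here after its values were seen, rose from 704 ± 342 to 1852 ± 480 TPM (1.45, limma adjusted p = 0.0049). The hormone gene Fgf21, at 6.17 ± 2.13 and 7.47 ± 4.57 TPM, and Vnn1, at 37.0 ± 13.1 and 44.0 ± 15.7 TPM, did not pass (limma adjusted p = 0.835 and 0.537) and were also named after their values were seen. Exons of Mpc1 (23.1%), Slc16a6 (22.5%), Acot11 (20.9%), Bdh1 (13.7%), Gpd1 (13.0%), Acsl1 (9.91%), Acot3 (9.08%) and Ucp2 (4.36%) overlap a gene on the opposite strand by the share of their length given, and the strand setting of the counting is unknown. So do those of Echs1 (1.71%), named further below, and of Xist (11.5%) and Nr1d1 (8.55%), outside these lists. Of the 30 genes named by rule from these lists beside the 8 and passing in WT, 24 kept their call with each library left out in turn. None of them changed sign in any alternative.

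**Figure D4:**
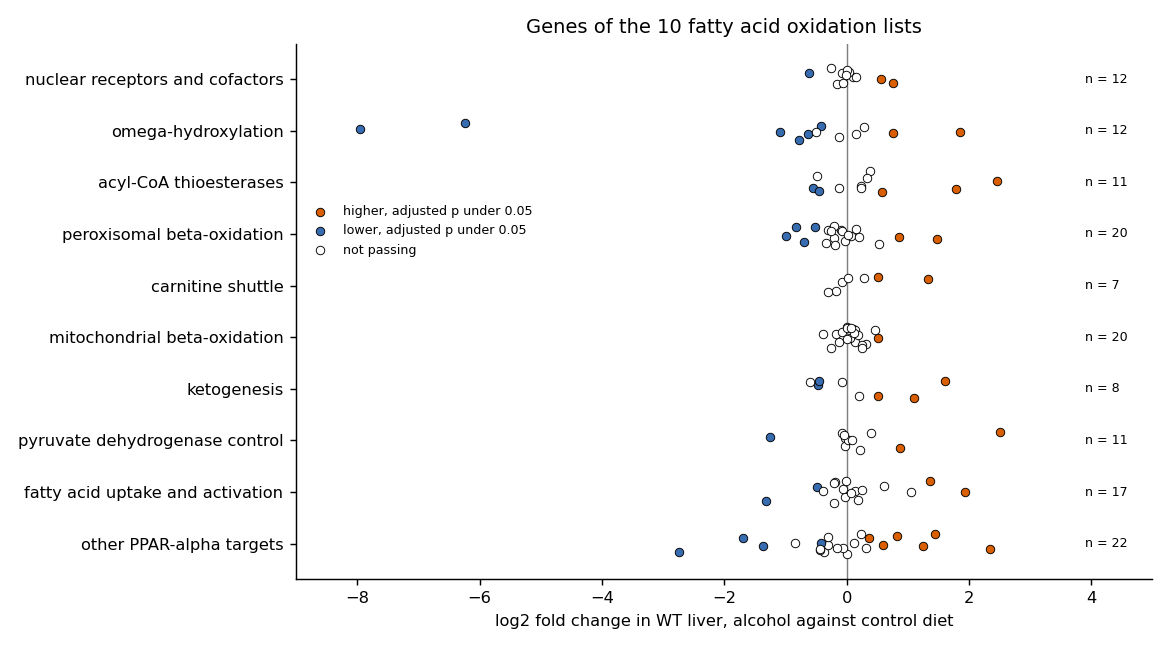
Log2 fold change in WT liver, alcohol against control diet, of every tested gene in 10 lists of fatty acid metabolism (1 row a list, 1 point a gene, number of tested genes at right, vertical jitter only for legibility). Orange points are higher and blue points lower at an adjusted p under 0.05, and open points did not pass. Most lists hold both colours, the mitochondrial list has 1 coloured point of 20, and the 2 points far to the left are Cyp4a12a at -7.95 and Cyp4a12b at -6.23.

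Pdk4 and the Cyp4a genes are known to vary with fasting and time of day, and genes of both shifted in the same WT libraries. Of 14 fasting and glucocorticoid genes 5 were higher and 2 lower, beside 13.3% higher and 17.9% lower among all genes tested. Igfbp1, a classical insulin-suppressed gene, rose from 103 ± 47.0 to 830 ± 391 TPM (2.99, limma adjusted p = 0.000303) and Gadd45b from 1.83 ± 0.865 to 17.4 ± 8.91 TPM (2.64, limma adjusted p = 0.000337). Tsc22d3, a glucocorticoid-induced gene, fell from 95 ± 35.7 to 30.3 ± 8.36 TPM (-1.56, limma adjusted p = 0.00406), and Pck1, named after its values were seen, at 2248 ± 432 and 1831 ± 652 TPM did not pass (limma adjusted p = 0.303). Of 15 clock genes 1 was higher and 5 lower, among them the repressor Nr1d1, which fell from 8.61 ± 0.615 to 3.99 ± 0.907 TPM (limma adjusted p = 0.00103). The sources used here do not state feeding or the hour of collection, and the part of these shifts in the changes of the 8 genes was not tested.

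Markers of other cell types moved in WT liver as well, where 13.3% of all genes tested were higher and 17.9% lower. Of 7 tested neutrophil and monocyte markers 5 were higher, and the summed level of the 8 listed went from 32.2 to 76.1 TPM on control diet to 144 to 241 TPM on alcohol diet. None of 10 Kupffer cell and macrophage markers passed, with sums of 253 to 268 and 196 to 421 TPM and 1 of them at an unadjusted limma p under 0.05. Of 10 hepatocyte markers 3 were higher and 1 lower, with sums of 141994 to 166705 and 160449 to 181292 TPM. T and NK cell markers had 2 of 5 higher, with sums of 2.13 to 4.1 and 5.43 to 9.14 TPM, and 2 of 7 sinusoidal endothelial and 2 of 5 stellate cell markers were higher too. Neither of 2 tested cholangiocyte markers passed, with 1 at an unadjusted limma p under 0.05, and both tested adipocyte markers were lower. Adipocyte markers summed to 13.9 to 81.3 TPM on control diet and 0.0749 to 3.88 TPM on alcohol diet, with Lep at 0 in every WT library. In bulk liver a change in the number of cells of a type and a change of RNA per cell cannot be told apart, and the part of these shifts in the levels of the 8 genes was not tested.

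The genes most like Cyp4a14 and Pdk4 over the 8 WT libraries were found among 5714 genes, as those with the smallest mean absolute difference in log2(TPM + 1) after centring each gene. For Cyp4a14 the nearest was Cd36 at a difference of 0.353, followed by Actg1 (0.409), Rasd1 (0.421), Lyve1 (0.427) and Aqp1 (0.429). For Pdk4 the nearest was Il1rn at 0.235, followed by Sgms1 (0.283), Pde4b (0.292), Cd14 (0.321) and Tiparp (0.356). The points are the same 8 libraries for every gene and share their diet groups, so this likeness only describes the pattern. Cd36 had the same high control library as Cyp4a14, with 4.32, 5.81, 5.07 and 13.5 TPM in control libraries 1 to 4.

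The second comparison put the same question to the libraries labelled RageΔMye. Cyp4a14 was the gene of the 8 that passed, 1 of 7 tested beside 0.0374% of 10689 genes, that is 4 genes in all (0.0187% higher and 0.0187% lower), and it entered the test only through its alcohol group. It was listed at 0 in all 3 control libraries and at 197, 258 and 80.7 TPM in alcohol libraries 1 to 3 (limma adjusted p = 0.0157), so no fold is given. All 3 alcohol libraries were above all 3 controls, as in WT for 3 of 4 controls. The call was lost without control library 2 or 3 (limma adjusted p = 0.125 and 0.118), without alcohol library 1 or 2 (0.106 and 0.209) and at a pseudocount of 0.01 (0.106).

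Cyp4a10 showed the same order without passing. Its control libraries held 0, 10.4 and 6.40 TPM and its alcohol libraries held 315, 213 and 15.3 TPM. The groups did not overlap, but alcohol library 3 lay close to the controls, and the log2 difference of 4.55 (95% interval 1.53 to 7.58) had a limma adjusted p of 0.444. In this design of 3 against 3 no exact two-sided permutation test can reach 0.05. The libraries did not overlap for 4 of the 7 tested genes, Cyp4a14, Cyp4a10 and Acaa2 higher and Ppara lower on alcohol, beside 11.7% of all genes (5.83% higher and 5.85% lower).

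Acaa2 in the libraries labelled RageΔMye reached 682, 499 and 364 TPM under control diet and 950, 1134 and 687 TPM under alcohol diet. The highest control library lay just below the lowest alcohol library. Means were 515 ± 159 and 924 ± 225 TPM (SD, n = 3 each), a log2 difference of 0.86 (95% interval 0.17 to 1.55, limma adjusted p = 0.614). Of 19 tested genes of mitochondrial beta-oxidation, Acaa2 included, 15 had a difference above 0, beside 5378 of all 10689 genes. Their median was 0.57 beside 0.01 for all genes. None of the 19 passed, and 5 had an unadjusted limma p under 0.05, as did 747 of all 10689 genes. Echs1, the enoyl-CoA hydratase, at 52.6 ± 25.2 and 128 ± 4.07 TPM, and Hadh, at 102 ± 17.0 and 190 ± 18.8 TPM, were named after their values were seen (1.37 and 0.90, limma adjusted p = 0.455 and 0.534).

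Ppara in these libraries measured 16.9, 19.3 and 15.4 TPM under control diet and 11.4, 9.85 and 13.5 TPM under alcohol diet, all alcohol values being below all control values (-0.54, 95% interval -1.67 to 0.60, limma adjusted p = 0.751). Cpt1a, at 171, 70.1 and 56.1 TPM against 50.5, 40.3 and 60.7 TPM, overlapped between diets (-0.80, 95% interval -1.92 to 0.31, limma adjusted p = 0.751). Neither gene passed, and 1 control library at 171 TPM set the mean of Cpt1a apart.

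Acot2 and Pdk4, the pair that rose most steadily in WT liver, were scarce here. Acot2 had 1.52, 1.64 and 0 TPM under control diet and 1.35, 0 and 0 TPM under alcohol diet (-0.50, 95% interval -2.24 to 1.25, limma adjusted p = 0.835). Pdk4 was listed at 2.98, 0 and 0 TPM and at 2.76, 0 and 0 TPM, under the minimum for testing. Acot2 was listed at 0 in 3 of 6 libraries and Pdk4 in 4 of 6. With values this low, these libraries cannot show whether a change of the size seen in WT was present or absent. Acot1 read 0 in each of the 3 control libraries and 2.49, 0 and 2.11 TPM on alcohol diet (limma adjusted p = 0.751). Across the 10 lists of fatty acid metabolism 1 of 131 tested genes passed, Cyp4a14 itself.

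Of the sex-biased lists, none of 8 tested female-biased genes passed in these libraries and 1 of 16 male-biased genes was lower. All 8 female-biased genes had a difference above 0, and 3 had an unadjusted limma p under 0.05. None of the 16 male-biased genes had a difference above 0, and 9 had an unadjusted limma p under 0.05. Of all 10689 genes tested, 5378 had a difference above 0 and 747 had such a p. Female-biased genes summed to 10.9 to 27.8 TPM on control diet and to 218 to 795 TPM on alcohol diet, against 41.6 to 104 and 6632 to 9271 TPM in WT. Male-biased genes summed to 11834 to 17202 and 664 to 4387 TPM, against 45415 to 68354 and 483 to 579 TPM in WT. Hepatocyte markers summed to 50696 to 68255 TPM on control diet and 49445 to 61192 TPM on alcohol diet. The sums of both sex-biased lists did not overlap between diets in these libraries, so diet and sex cannot be cleanly told apart here either. The part of these differences in the levels of Cyp4a14 and Cyp4a10 was not tested.

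Whether the diet effect differed between the genotypes was tested in 1 fit of all 14 liver libraries, weighted for the spread of each genotype. None of the 8 genes passed, beside 0.505% of 12069 genes (limma, 61 genes), and 2 of the 8, Cyp4a10 and Acot2, had an unadjusted limma p under 0.05, as did 1026 of all genes. On simulated data more of the calls of this fit were false than true, so neither the 61 calls nor its adjusted p-values are firm. For Acot2 the estimated difference, RageΔMye minus WT, was -2.96 on the log2 scale (95% interval -5.79 to -0.12, limma adjusted p = 0.551). It rests on levels of 0 to 1.64 TPM in the libraries labelled RageΔMye, too low to show whether the diet effects differed. For Cyp4a10 the estimated difference was 3.79 (95% interval 0.19 to 7.40, limma adjusted p = 0.549). Cyp4a14 differed by 5.47 (95% interval -1.03 to 11.97, limma adjusted p = 0.712), a value that depends on control libraries listed at 0. Without weights Cyp4a14 and Acot2 passed (limma adjusted p = 0.00247 and 0.0152), and when the estimates of the separate fits were subtracted Cyp4a14 alone did (adjusted p = 0.00316). Pdk4, Cpt1a, Acaa2, Ppara and Acot1 had differences of -2.53, -1.09, 0.86, -0.39 and 0.91 with limma adjusted p from 0.686 to 0.969. Plin2, again named after its values were seen, had a difference below 0 in libraries labelled RageΔMye, with 338 ± 146 TPM on control diet and 74.5 ± 18.2 TPM on alcohol (-2.11, limma adjusted p = 0.138), and the difference from WT did not pass either (-3.57, limma adjusted p = 0.585). From the 10 lists of fatty acid metabolism 1 of 141 tested genes passed, Cyp4a12b, which fell in WT and in libraries labelled RageΔMye was listed at 0, 0 and 6.91 TPM under control diet and at 0 in all 3 under alcohol.

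The order of the 8 genes by mean level was partly the same in every liver group. Acaa2 was highest in all 4 groups and its libraries lay above those of the next gene each time. In WT liver on control diet Cpt1a, Cyp4a10 and Cyp4a14 followed, each overlapping the next, then Ppara, and at the low end Acot1, Pdk4 and Acot2. On alcohol diet Cyp4a10, Cyp4a14 and Cpt1a overlapped below Acaa2, Ppara stood apart, and Pdk4, Acot2 and Acot1 overlapped at the bottom, so that by its mean Acot1 had gone from the highest to the lowest of the 3 scarce genes. In libraries labelled RageΔMye the means of Cyp4a10 and Cyp4a14 went from below Ppara on control diet to above Cpt1a on alcohol diet.

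RAW264.7 cells listed few of these genes. Cyp4a10, Cyp4a14, Acot1, Pdk4 and Ppara were listed at 0 in all 6 libraries, and Acot2 was at 1.33 TPM in 1 BSA library and listed at 0 in the others. The RAW264.7 libraries listed only 8630 to 9231 genes above 0, so a zero is not given as absence here either. Cpt1a stood at 23.1, 20.8 and 37.5 TPM with BSA and at 38.0, 31.9 and 19.9 TPM with the complex, and the groups overlapped (0.14, 95% interval -0.75 to 1.02, limma adjusted p = 0.942). Acaa2 was at 0, 0 and 34.5 TPM with BSA and at 9.27, 29.2 and 0 TPM with the complex (1.04, 95% interval -3.08 to 5.17, limma adjusted p = 0.861). Neither of the 2 tested genes passed, none had an unadjusted limma p under 0.05, and neither lacked overlap between groups. Of all 10559 genes 0.18% passed (0.152% higher and 0.0284% lower), and 13.5% did not overlap (5.63% higher and 7.91% lower).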

How the data were processed

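Total liver RNA and RAW264.7 RNA were sequenced from TruSeq Stranded mRNA libraries, per the labels' protocols, and the build was mm10, from the submitters' processing notes. The sources used here do not name the aligner, annotation, counting tool or strand setting. The authors deposited 1 table for liver and 1 for RAW264.7 cells whose headers name no unit. The deposited values were read as TPM because the columns sum to 999999.5 to 1000003.6, and the number of reads behind them is unknown. All columns were used and the tables were never compared by a test. Values were analysed as log2(TPM + 1) for genes whose mean reached 1 TPM in any group of the fit, with limma 3.58.1 (intensity trend) in R 4.3.3 and Benjamini-Hochberg adjustment over all genes tested, and passed at an adjusted p under 0.05. Each genotype was fitted alone, because spreads differed several-fold, and the difference of diet effects used all 14 liver libraries with weights per genotype. Exact two-sided permutation tests were run for single genes in WT. On simulated data with changes of 2-fold, 4-fold and 8-fold, the WT fit recovered nearly all changes with few false calls. Each size was given to 66 or 67 genes, a far smaller share than was called in WT liver, and smaller changes were not simulated. The fits of libraries labelled RageΔMye and of RAW264.7 cells missed most changes but made few false calls. The fit of the difference missed most changes and made more false calls than true ones. The simulation was a single draw of normal noise and did not reproduce values listed at 0. It therefore cannot vouch for calls that rest on such zeros, as that on Cyp4a14 in libraries labelled RageΔMye does. The 8 genes and all lists were chosen with earlier results of these data known. From each pathway list, up to 4 passing genes with the smallest adjusted p in WT are named, and any other gene is said to be named after its values were seen. Some genes that the rule selects are not reported here. Same-numbered libraries were not paired. Gene positions and sequence overlaps come from GENCODE vM21 on mm10, and promoter sequences from RefSeq on GRCm38.p6. Alternatives were pseudocounts of 0.1 and 0.01, no filter or 5 TPM, each library left out, joint fits, quantile normalization and a replicate block. The subtraction of separate fits and the count of genes without overlap between libraries were added after seeing the data.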

Additional observations from a re-analysis of the deposited data

Results flagged for a closer look

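In 76 groups of 4 WT libraries, over the genes named, 7 had a highest or lowest library set far from the other 3 relative to the spread of the group. Chance alone sets about 1 in 20 groups apart in this way. Cyp4a14 on control diet had its highest library at 457 TPM, with the next at 101 TPM, and that library is also the high one for Cd36 on control diet, at 13.5 TPM with the next at 5.81 TPM. Cyp4a10 on alcohol diet had its highest library at 688 TPM, with the next at 426 TPM. Acaa2 on control diet was highest at 1753 TPM, with the next at 1570 TPM. Cyp4f14 on alcohol diet was highest at 96.3 TPM, with the next at 86.4 TPM, and Acox2 on alcohol diet at 144 TPM, with the next at 140 TPM. Cyp4a12b on alcohol diet was at 0.0533 TPM in 1 library and at 0 in the other 3.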

How the results depend on the processing

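In WT liver the calls on Acot2 and Pdk4 held in all 15 alternatives, and 10 of the 30 other pathway genes named by rule kept theirs in every one. The 3042 genes called in WT became 1881 with a minimum of 5 TPM, 337 in the unweighted joint fit of 14 liver libraries, and 2055 to 3469 with 1 library left out. The 4 of the 8 genes called became 2 with no filter, in the unweighted joint fit, by exact permutation and by lack of overlap, and 2 to 5 with 1 library left out. The 47 pathway genes called became 14 in the unweighted joint fit and 36 to 50 with 1 library left out. For liver labelled RageΔMye the 4 genes called became 0 at a pseudocount of 0.01, 9 at 5 TPM, 657 and 50 in the joint fits without and with weights, 7 after quantile normalization, 0 with the replicate block and 0 to 5 with 1 library left out. The single member called became 0 at a pseudocount of 0.01, 3 and 0 in those joint fits, 0 with the block, 4 by lack of overlap and 0 to 1 with 1 library left out. For pathway genes the same settings gave 0, 14 and 0, 0, and 0 to 1. For the difference of effects 61 genes became 128 with no filter and 463 without weights. Members went from 0 to 2 without weights and 1 by subtraction, and pathway genes from 1 to 0 at a pseudocount of 0.1, 2 with no filter, 12 without weights, 4 by subtraction and 1 to 2 with 1 library left out. In RAW264.7 cells 19 genes became 2 to 9 with 1 library left out and 0 with the block. With 1 library left out, Acot1 in WT gave -0.03 (without alcohol library 2) to 0.38. In RAW264.7 cells Cpt1a gave -0.05 (without complex library 1) to 0.39, with -0.02 without BSA library 2, and Acaa2 gave -0.04 (without complex library 2) to 2.76. The causes were not tested. Same-numbered libraries did not pair, with correlations of deviations from -0.0163 to 0.0181 in liver labelled RageΔMye and from -0.0254 to -0.00111 in RAW264.7 cells, and not every library correlated best with its own number. No paired analysis was possible in WT because the libraries share no numbers between diets. Read depth is unknown, and values of a few TPM in libraries with many zeros limit Acot1, Acot2 and Pdk4 most.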
